A study of Mus musculus with 4 samples.

Results

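The keratin genes Krt5, Krt14 and Krt15 were followed across the cell classes of adult mouse back skin, as the 3 rows of those symbols among the 27998 genes of a droplet single-cell count matrix. Cells had come from CD1 mice of 7 to 8 weeks and were FACS-sorted, then captured on Chromium 3′ v2 chemistry. There were 4 libraries, 1 per group: labelled Ovol1 null with imiquimod, labelled Ovol1 null untreated, control with imiquimod, and control untreated. Imiquimod, an agonist of Toll-like receptors that brings on psoriasis-like inflammation in mouse skin, had been given as 1 application of 62.5 mg of a 5% cream to the shaved back. Ovol1 is a zinc finger transcription factor of epidermis. Which part of it had been deleted, how many animals had entered a library and what the sort had kept are not given in the sources used here.

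Keratin filaments are built from pairs of a type I and a type II chain. In the basal layer of epidermis and the outer layer of the hair follicle the type II chain is Krt5, and its type I partners are Krt14 and Krt15. Transcription of the basal genes falls as cells leave the basement membrane and the pair Krt1 and Krt10 takes over, while Krt15 is also known from the hair follicle bulge, the niche of follicle stem cells.

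The 3 genes lie in both keratin clusters of the mouse genome (GRCm38, GENCODE M21 annotation). Krt5 (ENSMUSG00000061527, minus strand, 9 exons) lies at chr15:101707070-101712898. Krt14 (ENSMUSG00000045545, minus strand, 8 exons) lies at chr11:100203162-100207548, and Krt15 (ENSMUSG00000054146, minus strand, 8 exons) lies at chr11:100131758-100135928, with 67233 bases between them. Because the libraries count 3′ ends, the last 60 coding bases of each gene are shown, from the coding strand of the reference annotation, with the stop codon in capitals.
Krt5: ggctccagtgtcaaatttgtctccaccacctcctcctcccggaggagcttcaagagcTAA
Krt14: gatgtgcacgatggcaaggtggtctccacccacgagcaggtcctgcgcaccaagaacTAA
Krt15: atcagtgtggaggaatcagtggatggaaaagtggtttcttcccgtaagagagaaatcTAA
The ends of these coding sequences differ, and the longest run of identical bases that Krt14 and Krt15 share in the last 500 bases of their transcripts was 17 bases. Further from the 3′ end both genes are much alike. The closest 60 coding bases, from base 679 to 738 of the Krt14 coding sequence and from base 613 to 672 of that of Krt15, had 57 bases the same, and the 3 that differ are in capitals below.
Krt14: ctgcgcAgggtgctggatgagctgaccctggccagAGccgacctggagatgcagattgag
Krt15: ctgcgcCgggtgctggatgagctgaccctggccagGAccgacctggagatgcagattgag
Krt14 shares longer runs in its last 500 bases with Krt16 (55 bases) and Krt17 (71 bases), so reads of Krt14 are less certain than those of Krt5 and Krt15 where Krt16 or Krt17 is abundant. The sources used here do not give how the counting treated such reads.

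After filtering, 22409 cells were kept (5553, 5214, 5576 and 6066 in the order of the groups above), with median totals of 8394, 5703, 4760 and 5707 unique molecular identifiers (UMIs, each standing for 1 captured transcript end) per cell. The labelled null imiquimod library thus stood apart in depth, and its lowest cell held 3039 UMIs, against 1413 to 1456 in the other 3. Of 22175 distinct barcodes, 234 occurred in more than 1 library. The level of Ovol1 did not mark the libraries labelled null: suprabasal-like cells, for example, held 163 CPM (UMIs of the gene scaled to the UMI total of its class) in labelled null imiquimod and 58.1 CPM in labelled null untreated, against 38.7 CPM in control imiquimod and 44.8 CPM in control untreated. In basal-like cells the values were 30.3, 18.3, 35.6 and 17.3 CPM in the same order. Such counts of 3′ ends check the genotype only if the deleted part covers them. Each group was 1 library, so no difference was tested, and every interval below is a 95% interval for counting error only.

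Classes were rebuilt by clustering without the 3 genes and named with markers that exclude them, so that neither clusters nor names rest on the values of Krt5, Krt14 and Krt15. A class called the Sostdc1 cluster is, in 3 of the libraries, a single cluster led by Sostdc1 that met 6 of 8 basal markers. In labelled null imiquimod 78 of its 225 cells come from that cluster, and the other 147 were given the name in a clustering of that library alone and lie, jointly, in a cluster led by BC100530 and Stfa3. The keratinocyte classes and the sebocyte-like cells together, here called the epithelium, held 1709, 2800, 2870 and 1987 cells and 98.0%, 94.7%, 94.5% and 95.2% of the UMIs of the 3 genes, in the order of the groups above. The label of basal keratins thus held for Krt5 and Krt14 in every library, whose highest levels were in basal-like cells. Krt15 was highest in basal-like cells of both untreated libraries, and in bulge-like cells of labelled null imiquimod and control imiquimod.

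Krt5 was highest in basal-like cells of each library. It stood there at 8034 CPM (95% interval 7975 to 8095) in labelled null imiquimod, 5757 CPM (5694 to 5820) in labelled null untreated, 4107 CPM (4059 to 4156) in control imiquimod and 5605 CPM (5529 to 5683) in control untreated. The labelled null imiquimod library was the highest and control imiquimod the lowest, while the 2 untreated libraries lay 1.03-fold apart. In the order of the groups above, the Sostdc1 cluster held 5857, 3777, 2885 and 3415 CPM of Krt5. Suprabasal-like cells held 4736, 2502, 1667 and 2591 CPM. The lowest values were in upper hair follicle-like cells, with 2087, 1453, 618 and 891 CPM, and in sebocyte-like cells, with 2000, 538, 424 and 379.7 CPM, which come from 101, 84, 23 and 81 cells.

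Krt14, the main type I partner in basal cells, reached 24384 CPM (24280 to 24489) in basal-like cells of labelled null imiquimod. It held 11993 CPM (11902 to 12084) in labelled null untreated, 10792 CPM (10713 to 10871) in control imiquimod and 10233 CPM (10130 to 10338) in control untreated. It was the most abundant transcript of basal-like cells in labelled null imiquimod, while in the other libraries it ranked 3, 5 and 5. Suprabasal-like cells showed the widest spread of Krt14 between libraries, with 15297 CPM in labelled null imiquimod, 1090.0 CPM in labelled null untreated, 2724 CPM in control imiquimod and 928 CPM in control untreated. In bulge-like cells Krt14 was low everywhere, at 4161, 2135, 1996 and 1797 CPM in the order of the groups above, and there it exceeded Krt5 in no library by more than counting error.

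Krt15, the other type I partner, went the opposite way in the library where Krt14 was highest. Basal-like cells held 720.4 CPM (703 to 739) of Krt15 in labelled null imiquimod, against 8446 CPM (8370 to 8523) in labelled null untreated, 6401 CPM (6340 to 6462) in control imiquimod and 10299 CPM (10195 to 10404) in control untreated. The transcript ranked 217 by level in basal-like cells of labelled null imiquimod, but 8, 20 and 4 in those of the other 3 libraries. Suprabasal-like cells held 112 CPM (105 to 120) in labelled null imiquimod, against 4656, 4914 and 5584 CPM in labelled null untreated, control imiquimod and control untreated. Upper hair follicle-like cells held 232 CPM in labelled null imiquimod, against 2456, 2095 and 2788 CPM. The Sostdc1 cluster held 1309 CPM in labelled null imiquimod, against 4878, 4897 and 5314 CPM, but the 78 cells of the cluster that Sostdc1 leads held 3938 CPM in labelled null imiquimod. Bulge-like cells, in contrast, held 8871 CPM (8691 to 9055) in labelled null imiquimod, 7043 CPM (6875 to 7214) in labelled null untreated, 6819 CPM (6627 to 7014) in control imiquimod and 8284 CPM (8088 to 8484) in control untreated. Over cells of all depths, all 4 libraries lay within 1.301-fold of each other in that class, and the library lowest in the other 4 of these classes was the highest.

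**Figure D1:**
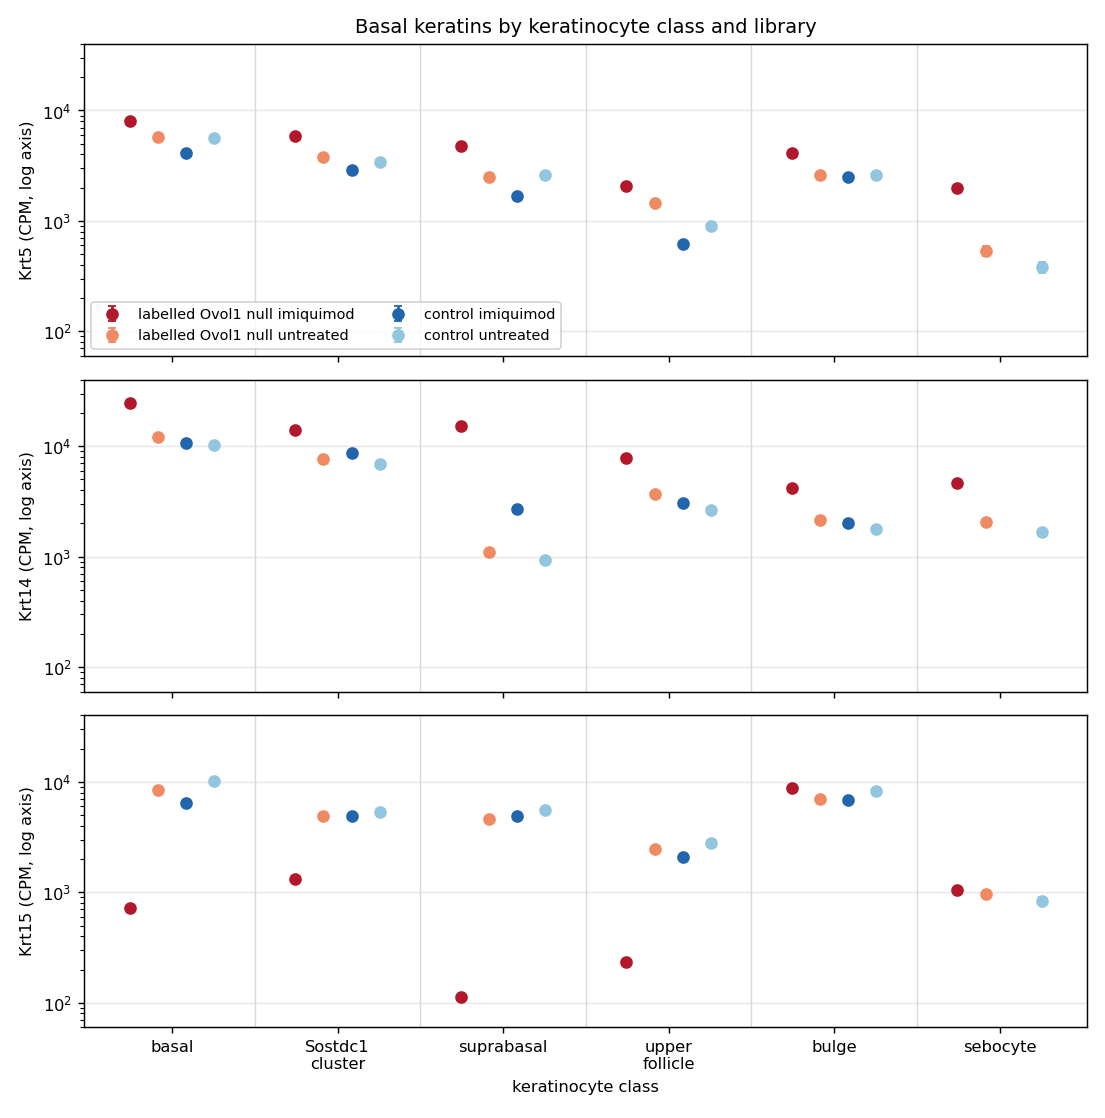
Levels of Krt5, Krt14 and Krt15 (CPM, log axis, 1 panel per gene) by keratinocyte class, with 1 point per library and bars for the 95% counting interval. Krt15 of the labelled null imiquimod library lies far under the other 3 libraries in 4 classes, at 720.4 CPM in basal-like and 112 CPM in suprabasal-like cells, and above them in bulge-like cells at 8871 CPM.

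The type I partners stood in different proportions in the libraries. Of the UMIs of the 3 genes in basal-like cells, Krt15 took 2.17% in labelled null imiquimod, 32.2% in labelled null untreated, 30.1% in control imiquimod and 39.4% in control untreated. Krt14 took 73.6%, 45.8%, 50.7% and 39.2%, and Krt5 took 24.2%, 21.98%, 19.3% and 21.4%, in that order. The share of Krt5 thus moved little while the type I chains changed places. In suprabasal-like cells Krt15 took 0.556% in labelled null imiquimod, against 56.5% in labelled null untreated, 52.8% in control imiquimod and 61.3% in control untreated. In bulge-like cells it took 51.7%, 59.7%, 60.3% and 65.4%, and was there the most abundant of the 3 in every library.

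In basal-like and bulge-like cells the sum of both type I genes, set against Krt5, varied less between libraries than either type I gene did. In basal-like cells their UMIs summed to 3.13 per UMI of Krt5 (3.10 to 3.15) in labelled null imiquimod, 3.55 (3.51 to 3.60) in labelled null untreated, 4.19 (4.13 to 4.24) in control imiquimod and 3.66 (3.61 to 3.72) in control untreated. Over the same cells Krt15 per Krt14 was 0.0295, 0.704, 0.593 and 1.01. In bulge-like cells the sum per Krt5 was 3.16, 3.52, 3.55 and 3.91. It was less even in suprabasal-like cells, at 3.25, 2.30, 4.58 and 2.51, and in upper hair follicle-like cells, at 3.87, 4.22, 8.36 and 6.08. These ratios do not depend on scaling to a total, but they carry how well each transcript end is captured, so a ratio above 1 is not one of protein chains.

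**Figure D2:**
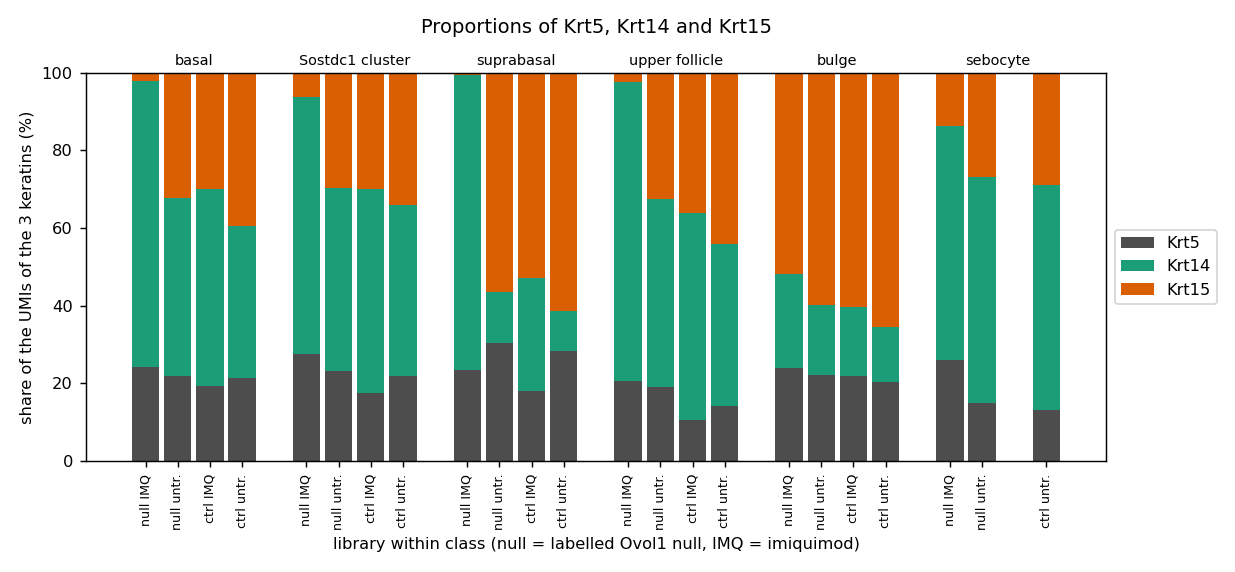
Shares of Krt5, Krt14 and Krt15 in the UMIs of the 3 (percent, stacked bars from 0 to 100) for each library within each keratinocyte class. In basal-like cells the Krt15 part is 2.17% in labelled null imiquimod and 30.1% to 39.4% in the other libraries, while the Krt5 part stays between 19.3% and 24.2%.

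A ratio of CPM between 2 libraries was counted as higher or lower when it was at least 1.5 either way and its interval lay on one side of 1. Of labelled null imiquimod over labelled null untreated, 14 of 18 values of the 3 genes in 6 classes were counted, 10 higher and 4 lower, where 37.3% of all gene values in those classes were counted (16.4% higher and 20.9% lower). The count is above that background, although among genes of at least 1000 CPM the background was 41.3%. All 6 Krt14 values were higher, by 2.03-fold (2.02 to 2.05) in basal-like and 14.0-fold (13.7 to 14.4) in suprabasal-like cells. Krt5 was counted as higher in 4 of 6 classes, and its 1.40-fold in basal-like and 1.44-fold in upper hair follicle-like cells stayed under the threshold. In the Sostdc1 cluster, where Krt5 was 1.55-fold and Krt14 1.82-fold higher, the Krt5 value stayed counted in 7 and the Krt14 value in 10 of 14 other ways of processing. Krt15 was lower in 4 classes: 11.7-fold (11.42 to 12.04) in basal-like, 41.6-fold (38.8 to 44.6) in suprabasal-like and 10.6-fold (9.91 to 11.3) in upper hair follicle-like cells, and 3.73-fold (3.58 to 3.88) in the Sostdc1 cluster. The last value rests on the cells named in their own library: within the joint cluster that Sostdc1 leads, the log2 ratio of Krt15 was -0.31 and was not counted. In bulge-like cells its ratio was 1.26 (1.22 to 1.30) and in sebocyte-like cells 1.09 (0.992 to 1.20), neither of them counted. Of 11011 genes measured in basal-like cells 77 had a lower ratio than Krt15, and of 10564 in suprabasal-like cells 21.

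Against control imiquimod, labelled null imiquimod had 14 of 15 values counted, 10 higher and 4 lower, over a background of 37.1% of all gene values (18.5% higher and 18.7% lower). Krt5 was 1.956-fold (1.929 to 1.984) higher in basal-like cells, 2.84-fold higher in suprabasal-like and 3.38-fold higher in upper hair follicle-like cells. Krt14 was 2.26-fold (2.24 to 2.28), 5.62-fold and 2.55-fold higher in those classes, while Krt15 was 8.89-fold (8.65 to 9.13), 43.9-fold (40.9 to 47.1) and 9.02-fold (8.43 to 9.65) lower. All 3 genes were somewhat higher in bulge-like cells, where Krt15 at 1.30 (1.26 to 1.35) was the value of the 15 not counted. This comparison shares the labelled null imiquimod library with the one before it, so the 2 are not independent.

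Without imiquimod few values of the 3 genes differed by label. Of labelled null untreated over control untreated, 1 of 18 values was counted, over a background of 6.35% (3.34% higher and 3.01% lower), which is no more than all genes showed. That value was Krt5 in upper hair follicle-like cells, 1.63-fold higher (1.54 to 1.73). The ratios in basal-like cells were 1.03 for Krt5, 1.17 for Krt14 and 0.820 for Krt15, and in suprabasal-like cells 0.966, 1.18 and 0.834.

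Of control imiquimod over control untreated, 3 of 15 values were counted, 1 higher and 2 lower, over a background of 18.5% (7.6% higher and 10.9% lower). Krt15 was 1.61-fold lower (1.59 to 1.63) in basal-like cells. In suprabasal-like cells Krt5 was 1.55-fold lower (1.51 to 1.60) and Krt14 was 2.94-fold higher (2.83 to 3.05), a value that changed sign to a log2 ratio of -1.01 with a stricter filter on cells. With TMM scaling, which moved the log2 ratios of all genes in basal-like cells of this comparison by 0.21, the count was 1 higher and 0 lower.

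**Figure D3:**
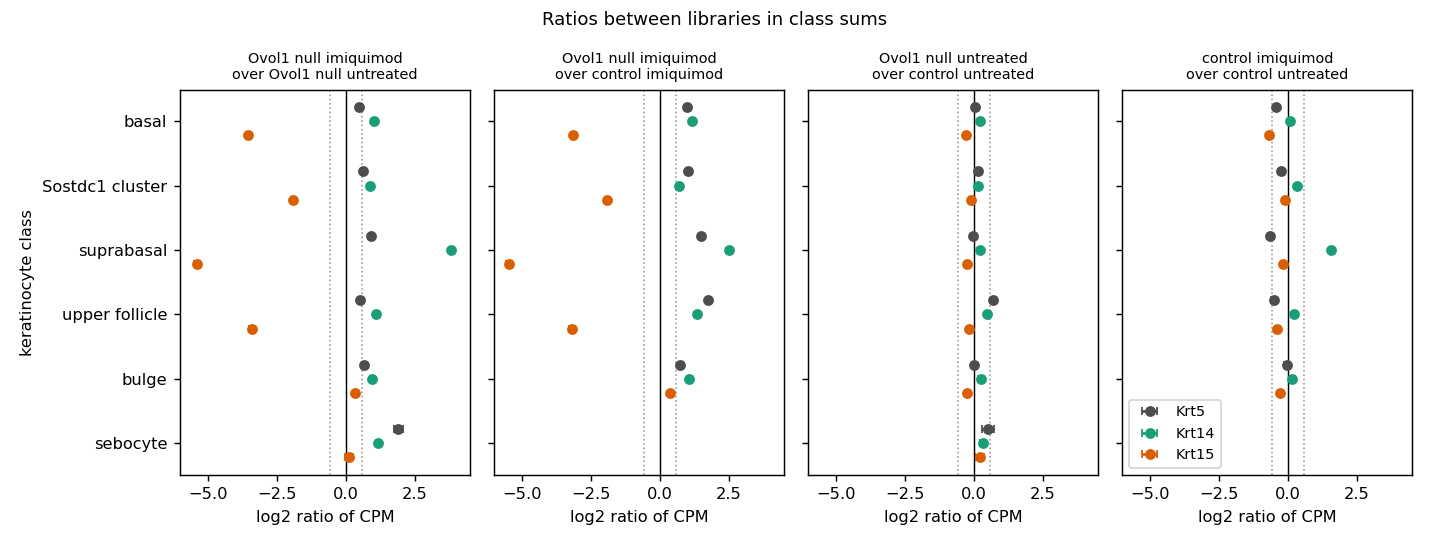
Log2 ratios of CPM of Krt5, Krt14 and Krt15 in class sums, 1 panel per comparison, with counting intervals and lines at 1.5-fold. Krt15 falls to a log2 ratio of -5.38 in suprabasal-like cells of labelled null imiquimod over labelled null untreated, and lies above 0 in bulge-like cells of both comparisons with that library on top.

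The low Krt15 of labelled null imiquimod was seen across its basal-like cells. The median basal-like cell held 3 UMIs of Krt15 in labelled null imiquimod (5th to 95th percentile 0 to 51), against 40 (10 to 138) in labelled null untreated, 29 (6 to 94.6) in control imiquimod and 43 (11 to 152) in control untreated. For Krt14 the medians were 358, 54, 44 and 41 UMIs, and for Krt5 they were 117, 30, 19 and 27. The shares of basal-like cells with at least 1 UMI of Krt15 were 73.0%, 99.8%, 99.7% and 100%, although the cells of the first library were the deepest, with a median of 15105 UMIs, against 5587, 5217 and 5086. Thinned to 1000 UMIs per cell, 34.8%, 98.4%, 96.3% and 98.5% of the basal-like cells kept a UMI of Krt15. The coefficient of variation of the cells' own Krt15 CPM was 1.84 in labelled null imiquimod and 0.571, 0.616 and 0.574 in the other libraries, so cells of the first library differed most among themselves. Few cells there carried Krt15 as the main keratin of the 3: 0.201% of basal-like cells had over 50% of these UMIs from Krt15, against 13.5%, 16.1% and 26.8%.

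With only cells of 5000 to 12000 UMIs the gap in Krt15 was narrower. Basal-like cells then held 967 CPM of Krt15 in labelled null imiquimod (132 cells), against 8591 CPM in labelled null untreated (492 cells), 6409 CPM in control imiquimod (564 cells) and 10581 CPM in control untreated (318 cells). Krt14 was at 22797, 12476, 11630 and 10544 CPM in the same cells. Suprabasal-like cells held 239 CPM of Krt15 in labelled null imiquimod, against 4615, 5287 and 5686 CPM in the other 3 libraries. Upper hair follicle-like cells held 460.1 CPM, against 2087, 1926 and 2087 CPM, and the Sostdc1 cluster 2653 CPM, against 4507, 4447 and 5036 CPM. The labelled null imiquimod library was still the lowest in these classes, by less than over all depths. Bulge-like cells of this range held 7782, 5711, 3558 and 7933 CPM of Krt15, in the order of the groups above, from 61, 76, 27 and 53 cells. There the libraries lay further apart than over all depths, and control untreated was the highest. This range of depth was chosen after the values were seen.

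Within labelled null imiquimod the level of Krt15 in basal-like cells and in the Sostdc1 cluster differed by joint cluster. A joint cluster of 993 cells, 969 of them from this library, was led by BC100530, Stfa3, BC117090, Krt6b and S100a8, and met 3 basal and 3 suprabasal markers alike, so its cells took the class they had in a clustering of their library alone. Its 458 basal-like cells held 539.6 CPM of Krt15, and 28.2% of them had none, whereas the 39 basal-like cells in other clusters held 3281 CPM. In the Sostdc1 cluster the values were 632 CPM in 147 cells and 3938 CPM in 78 cells. Krt14 stood at 25245 CPM and 12196 CPM in the same basal-like cells. All 186 bulge-like cells lay outside that cluster. Outside that cluster Krt15 was not high in every class: the 305 other upper hair follicle-like cells held 244 CPM and the 33 other suprabasal-like cells 448 CPM. Clusters also differed among the other libraries for basal-like and suprabasal-like cells. Basal-like cells of control imiquimod lie mainly in a cluster of their own (873 of 1149 cells), and those of labelled null untreated (656 of 892) and control untreated (458 of 647) share another. Suprabasal-like cells of control imiquimod (694 of 772) lie apart from those of labelled null untreated (746 of 839) and control untreated (429 of 489) as well.

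Since class lines could differ between libraries, basal-like and suprabasal-like cells were also binned by their UMIs of Krt1 and Krt10, the keratins of differentiating cells, per 10000 UMIs. Cells under 10 such UMIs held 661 CPM of Krt15 in labelled null imiquimod, 8448 in labelled null untreated, 6408 in control imiquimod and 10344 in control untreated. From 10 to 100 they held 129, 8615, 6843 and 9730 CPM, from 100 to 300 they held 124, 4376, 4249 and 5609 CPM, and from 300 upwards 196, 3162, 1688 and 3066 CPM. Krt15 of labelled null imiquimod was the lowest of the libraries in all 4 bins. Krt14 kept a high level further up in that library, with 24884, 23523, 12115 and 3739 CPM over the 4 bins. It stood at 12149, 8660.4, 938 and 596 CPM in labelled null untreated, at 10791, 7432, 1053 and 513 CPM in control imiquimod, and at 10539, 5751, 858 and 197 CPM in control untreated. Krt15 in the 3 other libraries thus fell less steeply with Krt1 and Krt10 than Krt14 did, and was the most abundant of the 3 from 100 such UMIs upwards.

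**Figure D4:**
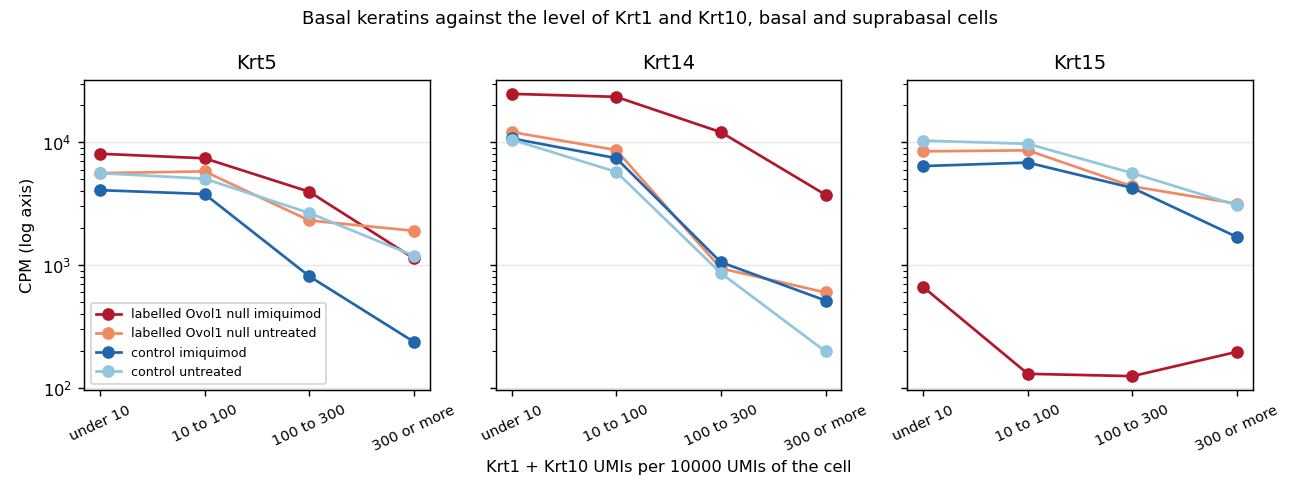
CPM (log axis) of Krt5, Krt14 and Krt15 in basal-like and suprabasal-like cells, binned by the UMIs of Krt1 and Krt10 per 10000 UMIs of the cell, 1 line per library. In the last bin Krt14 stands at 3739 CPM in labelled null imiquimod and at 197 to 596 CPM in the other libraries, while Krt15 stands at 196 CPM and at 1688 to 3162 CPM.

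Among all keratin genes, no gene other than the 3 took 5% or more of the keratin UMIs of basal-like cells in any library. Krt15 itself took 2.001% there in labelled null imiquimod, against 30.5%, 28.2% and 37.2% in labelled null untreated, control imiquimod and control untreated. In suprabasal-like cells Krt10 took 21.96%, 47.0%, 39.5% and 47.6% of keratin UMIs in the order of the groups above and Krt1 took 18.0%, 20.9%, 19.9% and 18.6%. Krt16, a keratin of injured and inflamed epidermis, reached 7.55% in suprabasal-like cells of labelled null imiquimod. The main other keratin of bulge-like cells was Krt17, a type I keratin of the follicle, with 32.2%, 35.7%, 47.8% and 31.7%.

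Genes around the basal keratins were read from 4 lists. In basal-like cells of labelled null imiquimod over labelled null untreated, where 44.7% of all genes were counted, the anchorage list of integrins, laminin-332 and hemidesmosome genes had 0 higher and 2 lower of 11. These were Dst, a linker of keratin filaments to the hemidesmosome, 2.59-fold lower at 107 against 275 CPM, and the laminin chain Lamb3, 1.78-fold lower. The same list had 6 of 11 lower in the Sostdc1 cluster, 6 of 11 in suprabasal-like and 8 of 11 in upper hair follicle-like cells, with 0 higher in each, where 19.8%, 27.6% and 24.8% of all genes were lower. Several of its genes are also basal markers that named the classes. Of 9 regulators of basal keratin genes 2 were higher and 3 lower. The largest falls were Tfap2c at 2.24-fold and Trp63, the p63 factor of stratified epithelium known to act on Krt5 and Krt14, at 2.03-fold with 268 against 544 CPM. Trp63 is also one of the basal markers that named the classes. Grhl3 was 6.11-fold higher at 5.47 against 0.897 CPM, resting on few UMIs in labelled null untreated, and Cebpa was 1.66-fold higher. Of 8 desmosome genes only Ppl was counted, 2.01-fold lower. All 8 differentiation and activation keratins were counted, 4 higher and 4 lower. Of these, Krt1, Krt10 and Krt77 are also suprabasal markers and Krt17 is an upper hair follicle marker used in naming. Krt6a was 202-fold higher at 1050.4 against 5.20 CPM, and Krt6b stood at 103 CPM against 0 UMIs in labelled null untreated. The largest falls of that list were Krt2, 35.4-fold and resting on few UMIs, and Krt77, 16.9-fold. Median log2 ratios were -0.07, -0.16, 0.03 and 0.24 for the 4 lists, beside -0.19 over all genes measured.

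Against control imiquimod, where 43.9% of all genes were counted in basal-like cells, Trp63 was 2.40-fold lower at 268 against 643 CPM, Dst was 3.9-fold lower and Lamb3 1.89-fold lower, while Itga3 was 1.60-fold higher. The regulators had 1 higher of 9, Grhl3 at 3.66-fold and on few UMIs in control imiquimod, and 2 lower, Trp63 and Klf4. The desmosome list had 0 higher and 1 lower of 8. The other keratins had 4 higher and 2 lower of 7, with Krt6a 63.2-fold higher at 1050.4 against 16.6 CPM. In labelled null untreated over control untreated, with 6.24% of all genes counted, no anchorage or desmosome gene was counted and Klf5, 1.501-fold lower, was the only regulator. Of the other keratins there Krt16 was 2.71-fold and Krt1 1.75-fold higher, and Krt17 was 1.63-fold lower. In control imiquimod over control untreated, with 22.1% counted, the anchorage and desmosome lists had none, the regulators had Tfap2c 1.75-fold and Klf5 1.51-fold lower, and Krt16 and Krt6a were 9.27-fold and 2.42-fold higher.

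Over 36 sums of class and library, from 9 classes with at least 50 cells in each library, Pearson's r of log2(CPM + 10) was 0.913 between Krt5 and Krt14, 0.757 between Krt5 and Krt15 and 0.569 between Krt14 and Krt15. In the 20 sums of keratinocyte classes alone the values were 0.62, -0.02 and -0.43. The sums of a library share its cells, depth and free RNA, so these are descriptions. Over the 36 sums, genes most like Krt5 included Itga6 (0.936), an integrin chain of the hemidesmosome, Ckmt1, Rgs12 and Plek2. Those most like Krt14 were Fgfbp1 (0.921), Krt5, S100a14, Galnt3 and Wnt10a. For Krt15 they were the epidermal chemokine gene Ccl27a (0.932), Col17a1 (0.916), which encodes a collagen of the hemidesmosome, Rpl13-ps3, Trp63 (0.905) and Kif21a.

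From cell to cell the partners related differently by class, as a description of single libraries. These are Spearman rank correlations over cells thinned to 1000 UMIs. In basal-like cells the correlation of Krt5 with Krt14 was 0.352 in labelled null imiquimod, 0.270 in labelled null untreated, 0.291 in control imiquimod and 0.286 in control untreated, and that of Krt14 with Krt15 was between -0.17 and -0.03. In bulge-like cells the signs were turned round: Krt5 with Krt14 lay between -0.30 and -0.17, and Krt14 with Krt15 between 0.25 and 0.44. A positive value of Krt14 with Krt15 was not particular to that class. It lay between 0.03 and 0.37 in upper hair follicle-like cells, and between -0.44 and -0.15 in the Sostdc1 cluster.

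Outside the epithelium all 3 genes were found at a low level. Fibroblast-like cells held the 3 at 0.0338% of their UMIs in labelled null imiquimod, 0.0867% in labelled null untreated, 0.0898% in control imiquimod and 0.0237% in control untreated, which is 1.53%, 5.94%, 6.35% and 1.63% of the level in the epithelium of the same library. Krt15 stood there at 21.7, 348, 346 and 101 CPM. At least 1 UMI of Krt15 was seen in 11.2%, 79.3%, 72.5% and 37.9% of fibroblast-like cells, at median depths of 8209, 6417, 4468 and 6986 UMIs. A cell with few UMIs of these keratins is therefore within the background of this tissue, and a share of cells with a UMI is not read as expression. Every keratinocyte class held more Krt15 CPM than the fibroblast-like cells of its library, the lowest being the suprabasal-like cells of labelled null imiquimod at 112 against 21.7 CPM.

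In fibroblast-like cells the 3 genes stood near the proportions in the epithelium of their library, but not within counting error. The intervals of both kinds of cell for Krt15 overlapped in no library, and those for Krt14 overlapped only in control untreated. Krt15 took 6.42% (5.85 to 7.02) of the 3 in fibroblast-like cells and 3.92% (3.87 to 3.97) in the epithelium of labelled null imiquimod, 40.2% and 38.0% in labelled null untreated, 38.5% and 36.6% in control imiquimod, and 42.7% and 44.7% in control untreated. The pairs for Krt14, in the same order of kinds of cell and libraries, were 69.9% and 71.9%, 36.6% and 38.5%, 43.6% and 45.0%, and 32.7% and 33.2%. The low share of Krt15 in labelled null imiquimod was thus seen in both kinds of cell. The keratin UMIs of fibroblast-like cells lie within the background described above, so their share is not a separate measurement of the keratinocyte classes.

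**Figure D5:**
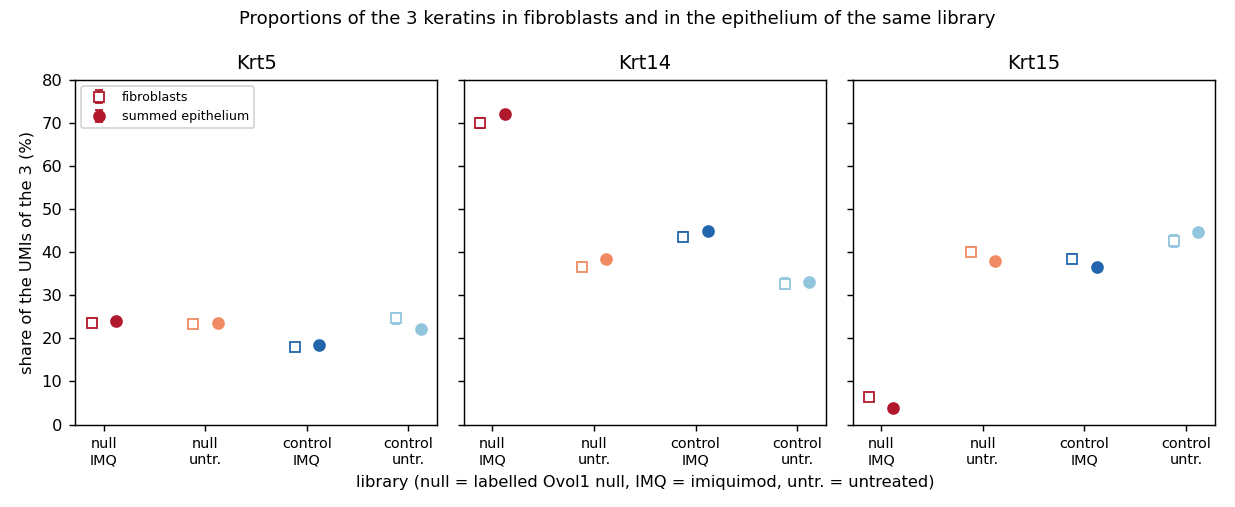
Share of each gene in the UMIs of the 3 (percent, 1 panel per gene), in fibroblast-like cells and in the summed epithelium of the same library, with counting intervals. Krt15 is at 6.42% and 3.92% in labelled null imiquimod, and at 36.6% to 44.7% in the other libraries in either kind of cell.

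Markers of other cells moved with the libraries too. In basal-like cells the 9 suprabasal markers summed to 3943 CPM in labelled null imiquimod, 2042 CPM in labelled null untreated, 2159 CPM in control imiquimod and 1480 CPM in control untreated, and the 8 basal markers to 1532, 2295, 2510.0 and 2217 CPM. In the Sostdc1 cluster the suprabasal markers summed to 6053, 1751, 3585 and 1084 CPM and the basal markers to 1041, 1957, 2028 and 1984 CPM. In upper hair follicle-like cells the suprabasal markers summed to 37070 CPM in labelled null imiquimod, against 15655, 28057 and 17522 CPM, and the basal markers to 229 CPM, against 739, 584 and 633 CPM. In suprabasal-like cells the basal markers summed to 390.4 CPM, against 1119, 1257 and 1149 CPM. Suprabasal markers there summed to 38099 CPM, against 36651.5, 32011 and 37970.5 CPM, with control untreated close behind. In all 4 classes where Krt15 was low in labelled null imiquimod, that library thus had the lowest sum of basal markers and the highest sum of suprabasal markers. Flg2 was at 0 in all 4 of these classes in that library. It was also at 0 in the Sostdc1 cluster of every library, and in some other of these classes in each other library. The 8 fibroblast markers, all with UMIs in every keratinocyte class, summed to 749 CPM in basal-like cells of labelled null imiquimod, 3039 CPM in labelled null untreated, 1388 CPM in control imiquimod and 2309.5 CPM in control untreated. The part of these markers in the differences of Krt15 was not tested. Taking off free RNA estimated from the fibroblast-like cells left all 4 lower values of Krt15 counted in both comparisons with labelled null imiquimod on top.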

How the data were processed

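The deposited matrix holds UMI counts per gene and barcode, made by the authors with Cell Ranger 2.1.0 on mm10 per the submitters' processing notes, and combined over the 4 libraries by an aggregation step that per the labels gave each barcode a library suffix. The sources used here do not say whether that step evened out depth. A kept barcode had 200 genes or more and no more than 10% mitochondrial UMIs, and 118, 78, 94 and 120 doublets were left out, from labelled null imiquimod to control untreated. They were called with Scrublet (scanpy 1.11.5) at a score of 0.25, set after its automatic threshold had marked 6 barcodes of 1 library. Clustering used 2000 variable genes without the members, 30 components, 15 neighbours and the Leiden method (igraph 0.11.9) at resolution 1. A cluster took a cell type's name from at least 3 markers, each seen in 10% of its cells and 2-fold over all other clusters (10 CPM added to both sides). Clusters with tied or no names took that of a clustering of their own library. This rule was chosen after seeing the data. The marker symbol Trac was not in the gene table.

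For each library, the UMIs of a class were added up and expressed as CPM, a gene's UMIs scaled to that total, in classes of at least 50 cells in both libraries. Intervals were exact: Poisson for levels, conditional binomial for ratios, Clopper-Pearson for shares (scipy 1.17.1). Genes with at least 20 UMIs over both libraries were measured. TMM factors came from edgeR 4.0.16, and no count model was fitted, with 1 library per group. On simulated counts the ratio rule was checked against known folds. Named genes were the members, at most 2 rises and 2 falls per list past 1.5-fold in basal-like cells, the 5 genes most like each member (1 gene is not reported here), and keratins with 5% of keratin UMIs. Members and lists were chosen with earlier results of these data known.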

Additional observations from a re-analysis of the deposited data

Results flagged for a closer look

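In 5 cases the value was higher with imiquimod between the 2 libraries labelled null and lower between the 2 control libraries, with both counting intervals on their side of no change. With 1 library per group these differences were not tested, and no cause is given. For Krt5 the log2 ratio of imiquimod over untreated in basal-like cells was 0.48 in the libraries labelled null and -0.45 in control, a difference of 0.93. In the Sostdc1 cluster it was 0.63 and -0.24, a difference of 0.88. The widest gap was in suprabasal-like cells, with 0.92 and -0.64, a difference of 1.56, and upper hair follicle-like cells had 0.52 and -0.53, a difference of 1.05. In upper hair follicle-like cells neither sign held in every other way of processing. The log2 ratio of Krt5 there ranged from -0.82 to 3.46 in the libraries labelled null and from -0.99 to 0.61 in control. Krt15 showed such opposite signs in bulge-like cells, with 0.33 in the libraries labelled null and -0.28 in control, a difference of 0.61. Krt5 in bulge-like cells also had opposite signs, but its ratio in control, 0.964 (0.904 to 1.03), had an interval that includes 1.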

How the results depend on the processing

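Of 32 counted values, 19 stayed counted with the same sign under every one of 14 alternatives that gave them a value, 13 of these planned. The log2 ratio of Krt15 in basal-like cells ranged from -4.26 to -3.15 for labelled null imiquimod over labelled null untreated and from -3.84 to -2.73 over control imiquimod. In suprabasal-like cells it ranged from -6.30 to -4.27 and from -6.29 to -4.47. In the Sostdc1 cluster the range reached -0.31 and -0.30 when the largest single joint cluster stood for the class. That alternative gave no value for basal-like or suprabasal-like cells here, as no joint cluster held enough cells of both libraries. Their ranges rest on 13 and 11 alternatives and leave this check out. The 39 basal-like cells of labelled null imiquimod outside its large cluster held 3281 CPM of Krt15. All basal-like cells held 8446 CPM in labelled null untreated and 6401 CPM in control imiquimod. With at least 500 genes and at most 5% mitochondrial UMIs, Krt14 in suprabasal-like cells of control imiquimod over control untreated reversed to -1.01. The cause was not tested. Counts of values, with fewer classes where cells ran short, were as follows. That filter gave 7 of 12 for labelled null imiquimod over labelled null untreated, 9 of 12 over control imiquimod, and 5 of 15 for control imiquimod over control untreated. Clustering with the 3 genes gave 9 of 15, 8 of 12 and, for labelled null untreated over control untreated, 3 of 18. Largest single clusters gave 7 of 12, 6 of 9 and 0 of 18. For labelled null untreated over control untreated, resolution 2 and kept doublets each gave 3 of 18, cells of 5000 to 12000 UMIs gave 2 of 18, and libraries clustered alone gave 5 of 18. For control imiquimod over control untreated, libraries clustered alone gave 5 of 12, TMM scaling 1 of 15, and free RNA taken off 5 of 15. No paired analysis was possible because each group has 1 library. The range of depth was added after seeing the data. Counting error was small beside the differences, and the spread between animals was not measured.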

Other observations

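Cells of immune and vessel classes also held the 3 genes, unevenly over cells. In T or NK-like cells the level was 2.92% of that in the epithelium in labelled null imiquimod, 13.2% in labelled null untreated, 30.1% in control imiquimod and 5.32% in control untreated. Of the 213 such cells of labelled null imiquimod, 36 were named in that library alone. Jointly these lay in a cluster led by Saa3 that held most fibroblast-like cells of that library. The 80 T or NK-like cells of control imiquimod held 2094 CPM of Krt15, close to the 2095 CPM of upper hair follicle-like cells of that library, and 3 of them had over 100 UMIs of the 3 genes. Mural-like cells of control untreated held 64.6% of the 3 as Krt15, and the top 1% of these 106 cells, rounded up to whole cells, carried 74.3% of their UMIs of the 3 genes. In Langerhans-like cells of labelled null imiquimod 1 of 90 cells carried 63.2%. Doublets that were not called and free RNA were not told apart here.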
